A study of Mus musculus with 16 samples.

Results

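Synaptic vesicle fusion genes were measured by bulk RNA sequencing in microdissected dorsal hippocampus of mice trained in active place avoidance (APA) and of untrained mice. The group held 8 genes, chosen by symbol from the 24972 rows of each library: the SNARE genes Snap25, Vamp2 and Stx1a, the calcium sensor Syt1, the complexins Cplx1 and Cplx2, and the SNARE recycling genes Nsf and Napb. In APA a mouse on a rotating arena learns to stay out of an unmarked zone in which it receives a mild foot shock. Trained mice had the shock on during training, and untrained mice walked the same arena with the shock off. All groups then shared a retention test without shock 24 h after the last training trial, and tissue was taken 60 min later. All mice were ArcCreERT2::eYFPflx on a C57BL/6 background, aged 3 to 4 months, so that every group carried an Arc-driven inducible Cre and a reporter. Tissue of each mouse was pooled by subregion, giving 16 libraries from 3 trained and 3 untrained mice. CA1 had 3 trained and 3 untrained libraries, whereas CA3 and the dentate gyrus (DG) each had 3 trained and 2 untrained libraries; untrained CA3 replicate 3 and untrained DG replicate 2 were not analysed here. The study methods give 2 females and 1 male as trained and 1 female and 2 males as untrained.

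At a synapse, Syntaxin-1 and SNAP-25 on the plasma membrane zip together with VAMP2 (synaptobrevin) on the vesicle into a SNARE complex whose assembly drives membrane fusion. Synaptotagmin-1 couples this step to calcium, and the complexins clamp and then promote fusion of primed vesicles. The ATPase NSF with its SNAP adaptors, among them the beta-SNAP encoded by Napb, takes the spent complexes apart so that the SNARE proteins can be used again.

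The sequence just before the transcription start is shown for 3 of these genes whose trained-to-untrained difference passed the threshold in at least 1 comparison and whose start carries the GC-box letters GGGCGG, which Sp1-family factors recognise. RefSeq promoter entries on GRCm38.p6 matched 6 of the 8 genes, and each stretch is the 250 bases upstream of the listed start, printed 5′ to 3′ on the gene's strand with GGGCGG or its reverse complement in capitals. The Stx1a stretch lies at chr5:135023232-135023481 (+), the Syt1 stretch at chr10:109010976-109011225 (−) and the Cplx1 stretch at chr5:108550028-108550277 (−).
Stx1a: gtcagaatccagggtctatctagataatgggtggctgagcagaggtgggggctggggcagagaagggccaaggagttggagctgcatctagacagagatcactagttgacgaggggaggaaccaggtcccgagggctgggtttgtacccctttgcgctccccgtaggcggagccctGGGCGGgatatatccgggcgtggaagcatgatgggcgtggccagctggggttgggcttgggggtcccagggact
Syt1: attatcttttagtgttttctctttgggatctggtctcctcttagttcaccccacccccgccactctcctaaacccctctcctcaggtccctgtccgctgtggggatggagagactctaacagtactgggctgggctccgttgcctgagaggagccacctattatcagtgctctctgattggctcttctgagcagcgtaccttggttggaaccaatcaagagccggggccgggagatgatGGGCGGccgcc
Cplx1: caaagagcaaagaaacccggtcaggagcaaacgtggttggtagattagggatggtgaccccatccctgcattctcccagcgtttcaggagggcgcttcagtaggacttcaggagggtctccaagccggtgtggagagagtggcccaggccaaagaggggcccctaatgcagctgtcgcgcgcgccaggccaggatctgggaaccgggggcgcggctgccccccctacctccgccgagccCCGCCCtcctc
Each of these windows held the letters 1 time, and over both strands they occurred in 32.7% of 32851 promoter windows of the same length. They were not found in the windows of Nsf and Napb or at the other listed start of Syt1. The Cplx2 window (chr13:54302306-54302555) lacked them too, but it lies well upstream of the gene's coordinates below and matches no annotated transcript start, so it is not counted as the start of Cplx2. The cyclic AMP response element TGACGTCA (1.55% of all windows), the Egr forms GCGTGGGCG and GCGGGGGCG (3.06%) and the neuronal repressor element RE1 (0.003%) were found in none of the listed windows. The Egr forms and GGGCGG can share bases, and a match of letters is a description of the sequence only.

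All 8 genes are protein coding in the GENCODE annotation of GRCm38. Snap25 lies on chromosome 2 (136713453 to 136782428, plus strand) and Napb on the same chromosome (148693985 to 148732467, minus strand). Vamp2 lies on chromosome 11 (69088490 to 69092384, plus) and Nsf further along it (103821782 to 103954056, minus). Stx1a (135023482 to 135051100, plus) and Cplx1 (108518554 to 108550024, minus) are both on chromosome 5. Syt1 lies on chromosome 10 (108497650 to 109010982, minus) and Cplx2 on chromosome 13 (54371349 to 54383917, plus). The span of Snap25 overlaps that of an antisense gene, Gm14053, and the span of Syt1 overlaps those of the antisense Gm47472 and of Gm5136 and Gm47477. The span of Nsf overlaps that of Gm8738, and whether exons overlap was not examined. Of the 31-base words in each gene's transcripts, between 0% and 1.94% also occur in another gene, and Cplx1 and Cplx2 share 2 of them.

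Levels are normalised estimated counts as the authors deposited them. Divided by the length of the longest annotated transcript, to set genes against each other, Cplx2 was the most abundant member with a level of 3263 per kb over the 16 libraries. Snap25 (2487 per kb), Nsf (2438 per kb), Vamp2 (2236 per kb) and Syt1 (2086 per kb) followed. The gap between Snap25 and Nsf, and that between Vamp2 and Syt1, was smaller than the spread of Snap25 and of Syt1 over libraries. Cplx1 reached 1076 per kb, Napb 771 per kb and Stx1a 184 per kb, the lowest. The Cplx2 level per kb was above that of 99.8% of 23028 genes with a length, and that of Stx1a above 89.0%. The order rests on the transcript length used: with the median length of a gene's transcripts Nsf came first at 12290 per kb and Cplx2 was rank 4. Over all 16 libraries the coefficient of variation of the level was lowest for Vamp2 (6.38%) and Nsf (6.49%) and highest for Stx1a (18.2%).

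Several properties of the libraries bear on these genes. Summed values ran from 7607326 to 7984931 per library, and the reads behind them are unknown, so no counting error is given. Markers separated the libraries by their labelled subregion only in part. The dentate granule marker Prox1 was between 3052 and 3861 in libraries labelled CA1, between 2690 and 4786 in CA3 and between 3292 and 4183 in DG. The CA1 pyramidal marker Wfs1 was between 746 and 1663 in untrained CA1 but between 472 and 681 in trained CA1, which was above its range of 244 to 423 in CA3 but overlapped its range of 304 to 558 in DG. The CA3 marker Grik4 was between 268 and 438 in CA1, between 314 and 621 in CA3 and between 374 and 522 in DG. The subregion names below are therefore those of the labels. Xist was between 7601 and 19590 in the 9 trained libraries and between 25.5 and 52.4 in 6 untrained ones, with 10590 in untrained CA3 replicate 1, so sex-linked expression and training cannot be told apart in nearly all libraries. The Y-linked Ddx3y was between 448 and 553 in those 6 untrained libraries and between 1.66 and 100.6 in 8 trained ones. Among these 8 it was 70.9 in trained CA1 replicate 1, 100.6 in trained CA1 replicate 3 and 92.9 in trained CA3 replicate 3. It was 12.9 or lower in the rest of the 8. It was 201 in untrained CA3 replicate 1 and 255 in trained DG replicate 3, which thus held both transcripts at intermediate levels. The CA1 and DG libraries of the animal untrained 1 had Xist at 26.1 and 25.5. These values conflict with the sexes given in the methods, which place a male among the trained and a female among the untrained mice, and whether libraries or animals were mislabelled was not tested. The number of genes at 0 also split the libraries: it was between 7567 and 9759 in 7 of them (trained CA1, untrained DG and trained CA3 other than replicate 3) and between 3124 and 5944 in the other 9.

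**Figure D1:**
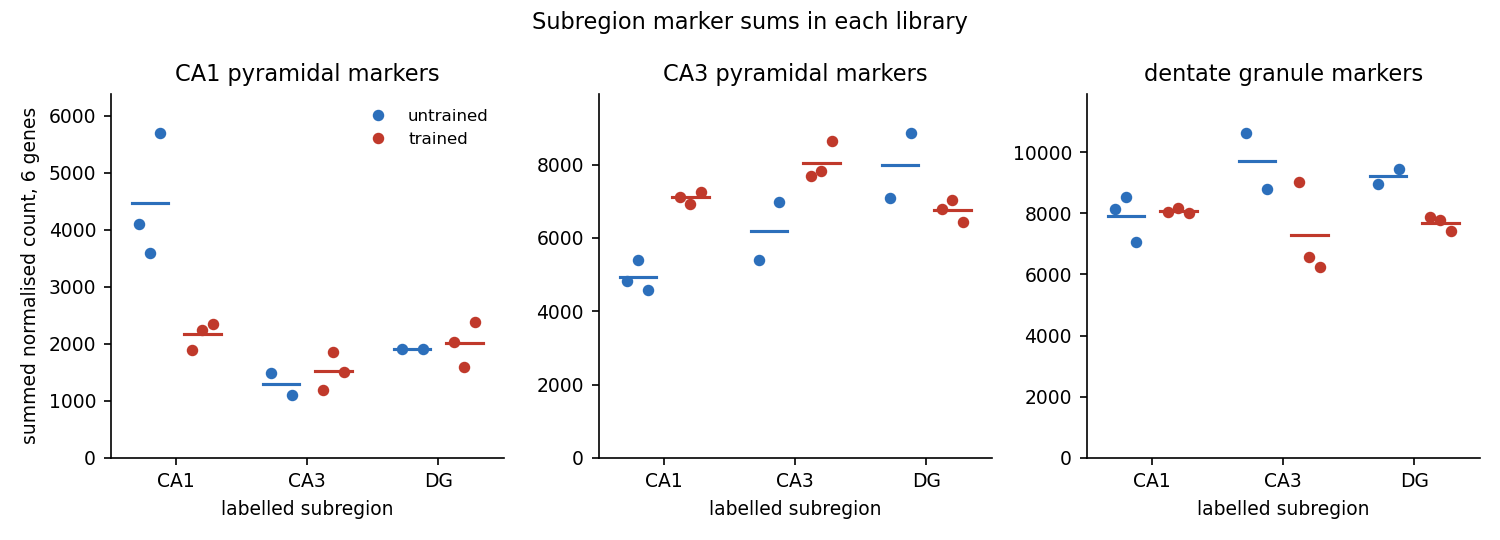
Summed normalised count of 6 CA1 pyramidal, 6 CA3 pyramidal and 6 dentate granule marker genes (vertical axes, from 0) in each library, by labelled subregion and training; points are libraries and lines are group means. The CA1 marker sum lies between 3590 and 5709 in untrained CA1 and at 2384 or lower in every other library, while dentate granule markers are high in all 3 labelled subregions.

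The first question was whether fusion genes differed with APA training in CA1. All 8 genes were higher on average in trained CA1, and the rise passed the threshold for 4: the SNARE gene Snap25, the calcium sensor Syt1 and both complexins. Among all 13588 genes tested in CA1, 3.53% were called higher and 5.23% in either direction. The median log2 fold change of the 8 genes was 0.22, against 0.000317 for all genes tested. Every trained library lay above every untrained one for 7 of the 8 genes, which was so for 12.9% of all genes tested. A call here is an adjusted p under 0.05 in limma, fitted on log2 of the value plus 2 and adjusted over all genes tested. All 8 genes passed the filter on low values in every comparison.

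Among the SNARE genes in CA1, Snap25 was 9805, 9820 and 9286 in the untrained libraries and 12961, 12642 and 12432 in the trained ones. No library overlapped, and the highest untrained value was far below the lowest trained one. Snap25 rose 1.32-fold (log2 fold change 0.40 ± 0.039 SE, limma adjusted p = 9.60e-06), the sixth smallest p of all genes in CA1. Its partner on the vesicle, Vamp2, was 4777, 4663 and 4751 in untrained and 5086, 5091 and 5274 in trained CA1. These groups did not overlap either, but the log2 difference of 0.12 ± 0.043 did not pass (limma adjusted p = 0.11). Stx1a was 287, 345 and 365 in untrained and 450, 407 and 332 in trained CA1, groups that overlapped, with a log2 difference of 0.25 ± 0.12 (limma adjusted p = 0.25).

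The complexins rose together in CA1. Cplx1 was 1884, 1715 and 1992 in untrained and 2495, 2429 and 2296 in trained libraries. Cplx2 was 14370, 14373 and 14006 in untrained and 17071, 17395 and 17341 in trained libraries, so that neither complexin overlapped between the groups. Cplx1 rose 1.29-fold (log2 0.37 ± 0.060 SE, limma adjusted p = 0.000789) and Cplx2 rose 1.21-fold (log2 0.28 ± 0.035, limma adjusted p = 7.14e-05). Syt1, which senses the calcium that triggers release, was 8774, 7972 and 9183 in untrained and 9793, 9707 and 9976 in trained CA1. Its rise of 1.14-fold (log2 0.19 ± 0.047, limma adjusted p = 0.0231) lost its call when any single replicate other than untrained 3 was left out, with limma adjusted p from 0.0655 to 0.124, and in the fit of all 16 libraries (0.181). The recycling pair Nsf and Napb had trained libraries above untrained ones without passing. Nsf was between 8045 and 8390 in untrained and between 8871 and 9079 in trained CA1 (log2 0.12 ± 0.039, limma adjusted p = 0.0733), and Napb between 2969 and 3077 and between 3177 and 3714 (log2 0.18 ± 0.055, limma adjusted p = 0.0692).

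Other measures moved with training in CA1. The summed CA1 pyramidal markers did not overlap between the groups, with 3590 to 5709 in untrained and 1898 to 2352 in trained CA1, and 2 of the 6 genes were called lower with none at 0. The 6 CA3 pyramidal markers summed to between 4570 and 5388 in untrained and to between 6925 and 7261 in trained CA1, with 4 called higher. The 8 general neuron markers summed to between 29740 and 30580 in untrained and between 31200 and 32260 in trained CA1, and 4 were called higher. The 6 endothelial markers summed to between 925 and 966 in untrained and between 1041 and 1085 in trained CA1, with 0 called in limma (1 at an unadjusted p under 0.05). In bulk tissue, fewer cells of a type and less RNA per cell cannot be told apart. With the CA1 marker score as a covariate, chosen after the values were seen, 1.57% of all genes were called and 2 of the 8 genes: Cplx1 (log2 0.65 ± 0.15, limma adjusted p = 0.025) and Syt1 (log2 0.49 ± 0.093, limma adjusted p = 0.00781). In that fit Snap25 was at 0.24 ± 0.084 (limma adjusted p = 0.217) and Cplx2 at 0.23 ± 0.077 (limma adjusted p = 0.193). The CA1 marker sum split trained from untrained libraries without overlap, so the fit can hardly separate the score from training. Trained CA1 libraries also had more genes at 0, between 8323 and 9759 against between 3124 and 5425, and the part of that in the CA1 values was not tested.

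**Figure D2:**
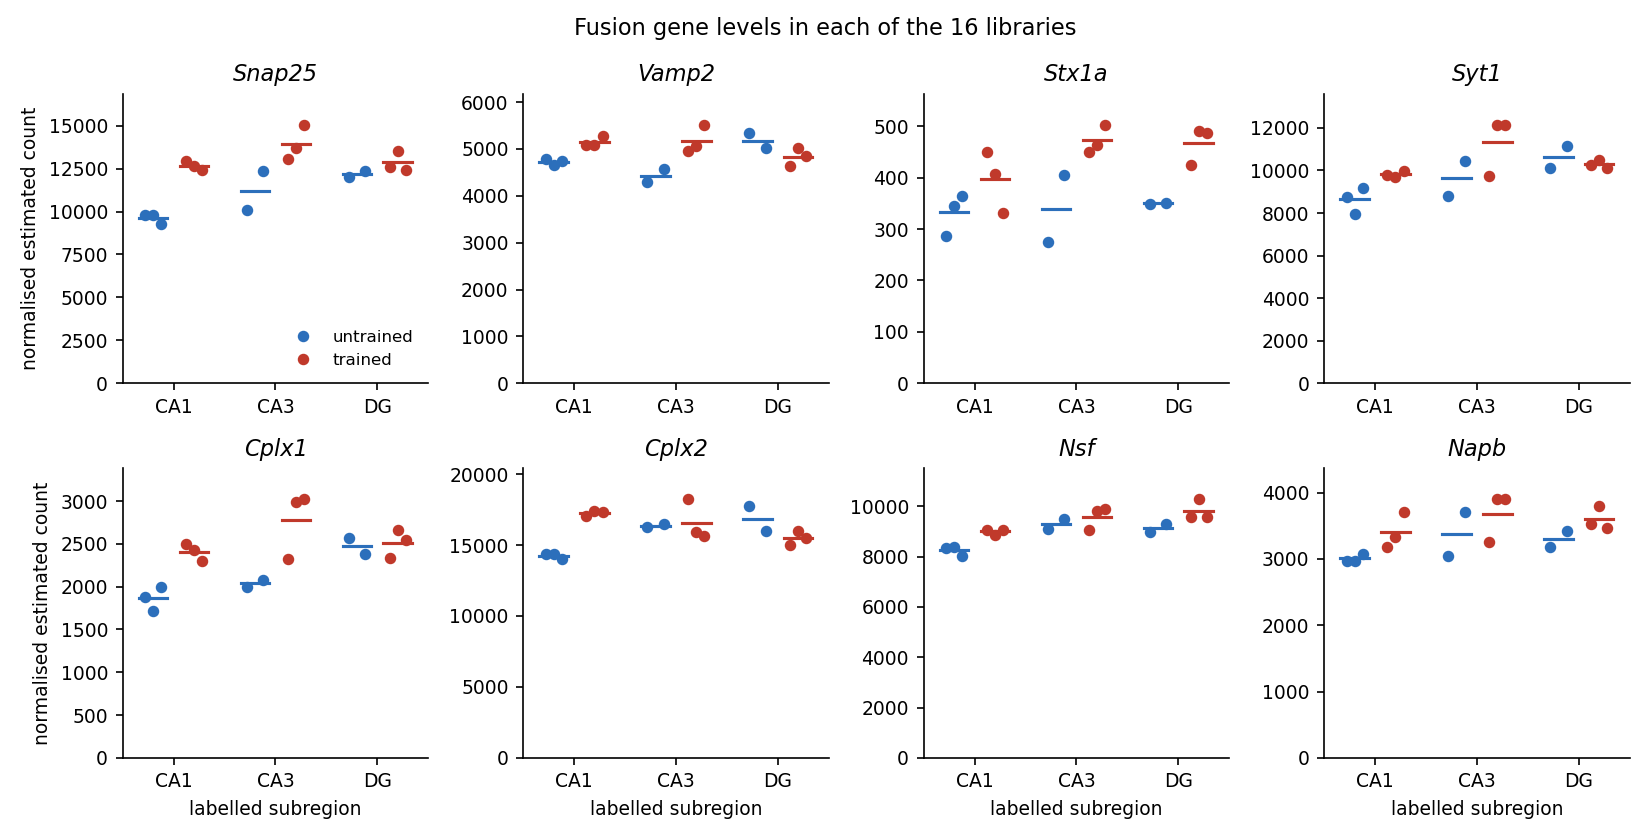
Normalised estimated count (vertical axes, from 0) of each of the 8 fusion genes in each library, by labelled subregion (horizontal axes) and training; points are libraries and lines are group means. Snap25 in untrained CA1 lies between 9286 and 9820, below all 3 trained CA1 libraries, while in DG the groups lie close together for most genes.

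In CA3 the same comparison gave no call. All 8 differences were positive, with a median of 0.23 on the log2 scale against -0.0058 for all genes, but 0 of 8 passed in limma. Of the 13848 genes tested, 0.737% were called higher and 0.852% in either direction, while 2182 had an unadjusted p under 0.05. At that unadjusted level 4 of the 8 genes would have passed, namely Cplx1, Snap25, Stx1a and Vamp2. The same 4 genes had every trained library above both untrained ones, which was so for 17.2% of all genes tested.

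The wide spread of CA3 lay within its groups. Snap25 was 10062 and 12370 in untrained and 13056, 13686 and 15065 in trained CA3, where the untrained pair stood further apart than in CA1. The log2 difference of 0.32 ± 0.098 (limma adjusted p = 0.157) was close to that in CA1 but had a wider SE. Stx1a was 274 and 405 in untrained and 451, 464 and 503 in trained CA3, a difference of 0.50 ± 0.15 (limma adjusted p = 0.163). The lower untrained value of both genes came from replicate 1, the library with the high Xist value. Without untrained replicate 1 the Snap25 difference was 0.17 (limma adjusted p = 0.76) and that of Stx1a 0.22 (limma adjusted p = 0.67). That fit sets the trained libraries against 1 untrained library, which is assumed to vary as the trained ones do. Cplx1 was 1993 and 2082 in untrained and 2324, 2988 and 3022 in trained CA3 (log2 0.44 ± 0.11, limma adjusted p = 0.111). Cplx2 by contrast was 16256 and 16466 in untrained and 18235, 15889 and 15633 in trained CA3, so that the trained group enclosed the untrained one (log2 0.016 ± 0.081, limma adjusted p = 0.943).

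Vamp2 was 4286 and 4563 in untrained and 4955, 5056 and 5520 in trained CA3 (log2 0.23 ± 0.076, limma adjusted p = 0.192). Syt1 was 8812 and 10463 in untrained and 9752, 12159 and 12158 in trained CA3, where the groups overlapped (log2 0.23 ± 0.11, limma adjusted p = 0.358). Nsf (log2 0.044 ± 0.072, limma adjusted p = 0.806) and Napb (log2 0.13 ± 0.11, limma adjusted p = 0.61) overlapped as well. The result in CA3 depended on the fit. When all 16 libraries shared 1 estimate of the spread, Snap25 (limma adjusted p = 0.0144), Cplx1 (0.0126) and Vamp2 (0.0384) were called. More of all genes tested were called in that fit as well, with the count given in the section on processing. Leaving out trained replicate 1, the library lowest for Snap25, Vamp2, Stx1a, Syt1 and Cplx1 among the trained, gave calls for Cplx1 (log2 0.56, limma adjusted p = 0.00361) and Syt1 (log2 0.34, limma adjusted p = 0.0442). Leaving out untrained replicate 2 gave a call for Stx1a (log2 0.78, limma adjusted p = 0.048), but against replicate 1 alone, the library with the high Xist value, and with the spread taken from the trained libraries. General neuron markers summed to between 31330 and 31730 in untrained and between 32380 and 34600 in trained CA3. The 6 CA3 pyramidal markers summed to between 5393 and 6982 in untrained and between 7679 and 8644 in trained CA3, without overlap and with 0 called in limma (3 at an unadjusted p under 0.05). Trained CA3 replicates 1 and 2 had 8692 and 8009 genes at 0, against 3171 in trained replicate 3 and 5659 and 3578 in the untrained pair. Choroid plexus markers summed to between 1744 and 2397 in untrained and between 905 and 1398 in trained CA3, with 2 of 6 called lower. The part of these in the CA3 differences was not tested.

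In DG only the syntaxin gene was called among the 8. Stx1a was 350 in each of the untrained libraries and 425, 491 and 487 in the trained ones, with no overlap. It rose 1.33-fold (log2 0.41 ± 0.099 SE, limma adjusted p = 0.0323). Of the 13935 genes tested in DG, 1.74% were called higher and 3.39% in either direction. The call was lost when any single trained replicate was left out, replicate 3 with its Y-linked transcripts included, with log2 differences from 0.38 to 0.48 and limma adjusted p from 0.0635 to 0.159, and in the fit of all 16 libraries (0.116).

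The other SNARE genes differed little between trained and untrained DG. Snap25 was 12026 and 12388 in untrained and 12620, 13528 and 12422 in trained DG, which did not overlap but differed by only 0.074 ± 0.051 on the log2 scale (limma adjusted p = 0.47). Vamp2 was 5335 and 5021 in untrained and 4639, 5029 and 4839 in trained DG, with a negative difference of -0.099 ± 0.058 (limma adjusted p = 0.379). Cplx2 was 17724 and 15999 in untrained and 15035, 16022 and 15502 in trained DG, again a negative difference (-0.12 ± 0.053, limma adjusted p = 0.227). Without untrained replicate 3, Cplx2 was called lower in trained DG (log2 -0.19, limma adjusted p = 0.0384), a fit against 1 untrained library with the spread taken from the trained ones. Syt1 (-0.047 ± 0.053) and Cplx1 (0.022 ± 0.070) overlapped between the groups and changed sign without untrained replicate 3. Nsf (0.10 ± 0.053, limma adjusted p = 0.31) and Napb (0.12 ± 0.063, limma adjusted p = 0.299) had every trained library above the untrained pair. In total 4 genes, Stx1a, Snap25, Nsf and Napb, did so, against 17.5% of all genes tested. The dentate granule markers summed to between 8963 and 9463 in untrained and between 7412 and 7891 in trained DG, and 1 of the 6 was called lower. The CA3 pyramidal markers were also lower in sum, between 7086 and 8874 in untrained and between 6440 and 7038 in trained DG, although 4 of the 6 had a positive log2 difference and 0 were called in limma (3 at an unadjusted p under 0.05). Endothelial markers (799 to 1000 in untrained and 562 to 649 in trained DG) and oligodendrocyte markers (15880 to 20350 and 14040 to 15210) were lower in sum without overlap, and interneuron markers (3210 to 3493 and 3581 to 3748) were higher. Both untrained DG libraries had more genes at 0 than the trained ones. The part of these in the DG values was not tested.

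**Figure D3:**
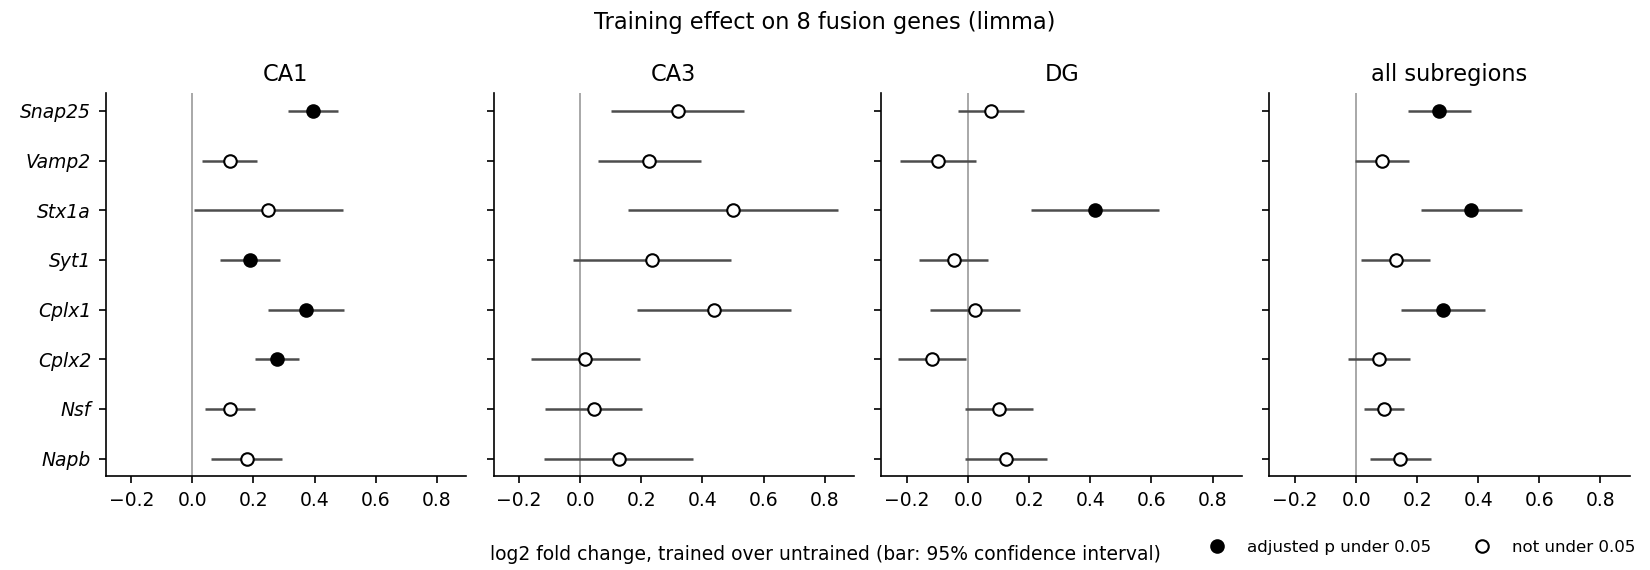
Log2 fold change of trained over untrained (horizontal axes) for the 8 fusion genes in CA1, CA3, DG and all subregions together; points are limma estimates, bars are 95% confidence intervals and filled points have an adjusted p under 0.05. The 4 filled points in CA1 are Snap25, Syt1, Cplx1 and Cplx2, CA3 has wide bars and no filled point, and Stx1a is the only filled point in DG.

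Across all subregions together, with subregion as a term, 3 of the 8 genes were called higher in trained mice: Snap25, Stx1a and Cplx1. Of the 14673 genes tested, 6.28% were called higher and 10.3% in either direction. This fit uses the same libraries as the comparisons within subregions. Snap25 ran from 12422 to 15065 with a median of 12961 in the 9 trained libraries, and from 9286 to 12388 with a median of 10062 in the 7 untrained ones. These ranges were disjoint even over the pooled subregions. Within each subregion every trained library lay above every untrained one for Snap25 alone among the members, which was so for 1.62% of all genes tested. Its rise was 1.21-fold (log2 0.27 ± 0.049 SE, limma adjusted p = 0.00128).

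Stx1a ran from 332 to 503 (median 451) in trained and from 274 to 405 (median 350) in untrained libraries, ranges that overlapped. It rose 1.30-fold (log2 0.38 ± 0.080, limma adjusted p = 0.00434), the largest estimate of the 8. Cplx1 ran from 2296 to 3022 (median 2495) in trained and from 1715 to 2567 (median 1993) in untrained libraries, and rose 1.22-fold (log2 0.28 ± 0.065, limma adjusted p = 0.00896). Napb (log2 0.15 ± 0.048, limma adjusted p = 0.0533) and Nsf (0.092 ± 0.032, limma adjusted p = 0.0665) were just short of the threshold, and with the animal as a random block Napb was called (log2 0.15, limma adjusted p = 0.0416). Syt1 (0.13 ± 0.054), Vamp2 (0.086 ± 0.043) and Cplx2 (0.075 ± 0.049) did not pass, with limma adjusted p from 0.131 to 0.364.

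Some of these calls turned on particular animals. Without the animal untrained 1, Stx1a was not called (log2 0.24, limma adjusted p = 0.0893). Without untrained 2 or trained 2, Cplx1 was not called (limma adjusted p = 0.0532 and 0.0606). With a score of sex-linked transcripts as a covariate, 0 of the 8 genes and 0 of all 14673 genes were called in limma, with 6 of the 8 and 1702 of all genes at an unadjusted p under 0.05, although the estimates were larger, at 0.47 for Snap25, 0.74 for Stx1a and 0.49 for Cplx1. Without untrained CA3 replicate 1, a choice made after its Xist value was seen, Snap25, Stx1a and Cplx1 were again called. Fewer of all genes were called in that fit than with every library, with the count given in the section on processing.

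Whether the training effect itself differed between subregions was tested as an interaction. The training effect on Cplx2 was larger in CA1 than in DG by 0.40 ± 0.079 on the log2 scale (limma adjusted p = 0.0136), the only member called, when 1.2% of all genes tested were called in that direction and 2.75% in either. Cplx2 rose in CA1, while its DG libraries were lower on average in trained mice without passing. The difference was not called without untrained replicate 1 (0.33, limma adjusted p = 0.112) or without trained replicate 2 (0.41, limma adjusted p = 0.0668). For Snap25 the effect was larger in CA1 than in DG by 0.32 ± 0.093 (limma adjusted p = 0.0617), and it was called when untrained CA3 replicate 1 was left out (limma adjusted p = 0.0246). For the remaining genes the CA1 minus DG difference was not called. Cplx1 was at 0.35 ± 0.12 (limma adjusted p = 0.128) and Stx1a, whose estimate was larger in DG, at -0.16 ± 0.19 (limma adjusted p = 0.709). Between CA1 and CA3, 0 of the 8 genes were called in limma, against 0.0273% of all genes tested, and 1 member, Cplx2, had an unadjusted p under 0.05 (0.26 ± 0.079, 95% confidence interval 0.099 to 0.42). Between CA3 and DG, 0 of the 8 were called in limma, against 0.164% of all genes, and 4 had an unadjusted p under 0.05.

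Levels were then compared between labelled subregions over both training groups. Snap25, Cplx1 and Nsf were called lower in CA1 than in DG, where 1.91% of all genes were called lower and 4.05% in either direction. The log2 differences, CA1 minus DG, were -0.18 ± 0.047 for Snap25 (limma adjusted p = 0.031), -0.23 ± 0.062 for Cplx1 (0.0349) and -0.13 ± 0.036 for Nsf (0.0358). Within CA1 the groups differed: Snap25 averaged 9637 ± 304 (SD, n = 3) in untrained CA1, against 12680 ± 266 (n = 3) in trained CA1 and 12210 ± 256 (n = 2) in untrained DG. Without trained replicate 2 or 3 none of the 8 genes was called, with limma adjusted p for Snap25 of 0.176 and 0.0637. CA1 against CA3 gave 0 calls among the 8 in limma (5 at an unadjusted p under 0.05), against 0.988% of all genes in either direction, and Snap25 was nearest at -0.17 ± 0.047 (limma adjusted p = 0.0805). Without untrained CA3 replicate 1 that difference was -0.25 and was called (limma adjusted p = 0.00485). CA3 against DG gave 0 calls among the 8 in limma, where 0.00682% of all genes were called and 0 of the 8 and 1007 of all genes had an unadjusted p under 0.05.

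Ratios within a library do not depend on the scaling between libraries, and they were chosen after the values were seen. The ratio of Snap25 to Vamp2 was between 1.95 and 2.11 in untrained and between 2.36 and 2.55 in trained CA1. In CA3 it was between 2.35 and 2.71 in untrained and between 2.63 and 2.73 in trained libraries, which overlapped. In DG it was between 2.25 and 2.47 in untrained and between 2.57 and 2.72 in trained libraries. The ratio of Cplx2 to Cplx1 was 7.68 ± 0.68 (SD, n = 3) in untrained and 7.18 ± 0.36 (n = 3) in trained CA1. In CA3 it was 8.03 ± 0.17 (n = 2) in untrained and 6.11 ± 1.5 (n = 3) in trained libraries, where trained replicate 1 alone reached 7.85. In DG it was between 6.73 and 6.9 in untrained and between 6.03 and 6.46 in trained libraries, which did not overlap. The ratio of Snap25 to Stx1a overlapped in CA1, with 25.4 to 34.2 in untrained and 28.8 to 37.5 in trained libraries. It was lower in trained libraries without overlap in CA3 (30.5 to 36.7 in untrained and 29.0 to 29.9 in trained) and in DG (34.4 to 35.4 in untrained and 25.5 to 29.7 in trained). No test was made of these ratios.

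The 8 genes varied together over the 16 libraries. Pearson's r of log2 values was positive for all 28 pairs, from 0.173 to 0.883 with a median of 0.648, and was highest for Syt1 with Cplx1 and for Snap25 with Cplx1. Among 10757 other genes with a mean value of at least 50, those most like the mean of the 8 genes were Spock1 (r = 0.983), Slc25a22 (0.982), Syp (0.969), Ly6e (0.968) and Sh3gl2 (0.967). Syp encodes the vesicle membrane protein synaptophysin, and Sh3gl2 encodes endophilin A1, which acts in vesicle retrieval. These correlations describe 16 libraries that share animals, subregions and training groups.

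The remaining release machinery was read from lists of 94 genes, of which 92 were in the files. In CA1, 11 of 89 tested were called higher and 4 lower, with a median log2 difference of 0.034, where 3.53% of all genes were called higher and 1.7% lower. In CA3 1 of 90 was called higher and 1 lower, against 0.737% and 0.116% of all genes. In DG 2 of 91 were called higher and 8 lower, against 1.74% and 1.66%. Over all subregions 14 of 91 were called higher and 5 lower, against 6.28% and 4.06%. Among the 28 other SNARE genes, 0 were called in CA1 and 0 of 27 in CA3 in limma, with 1 in each at an unadjusted p under 0.05. In DG 1 was called lower. That gene, named after its values were seen, was the syntaxin gene Stx3 (log2 -0.44 ± 0.11, limma adjusted p = 0.0372). Of the close relatives of the members, Vamp1 was called in CA1 (log2 0.32 ± 0.076, limma adjusted p = 0.0175) and over all subregions (0.30 ± 0.060, limma adjusted p = 0.00229). The SNAP-25 relatives Snap23, Snap29 and Snap47, which act in other fusion steps, were not called in any subregion, with log2 differences from -0.24 (Snap29 in CA1) to 0.19 (Snap47 in DG). The same held for the SNAP adaptor genes Napa and Napg, where Napa was at 0.12 ± 0.056 in CA1 and at -0.13 ± 0.075 in CA3. Syt2, a fast calcium sensor related to Syt1, was between 116 and 121 in untrained and between 166 and 219 in trained CA3 and just missed the threshold (log2 0.67 ± 0.14, limma adjusted p = 0.0515). Vamp3 was not called in any subregion. Cplx3 was low, between 5.2 and 19.0 in all libraries, and was not called where it was tested, and Cplx4 was between 0 and 7.6 and was not tested.

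The calls beside the 8 members were also counted by role. In CA1, 3.53% of all genes were called higher and 1.7% lower. There 3 of 16 genes of the synaptotagmin and calcium sensor list were higher and 2 lower. Of 24 priming factors 2 were higher and 1 lower, and of 17 vesicle proteins 5 were higher and 1 lower. In CA3, against 0.737% and 0.116% of all genes, 1 of 16 in the synaptotagmin list was higher and 1 of 17 vesicle proteins was lower. Of 25 priming factors 0 were called in limma, with 6 at an unadjusted p under 0.05. In DG, against 1.74% and 1.66%, 0 of 16 in the synaptotagmin list were higher and 2 lower. Of 25 priming factors 0 were higher and 3 lower, and of 17 vesicle proteins 2 were higher and 2 lower. Over all subregions, against 6.28% and 4.06%, 3 of 16 in the synaptotagmin list were higher and 1 lower. Of 25 priming factors 5 were higher and 2 lower, and of 17 vesicle proteins 5 were higher and 1 lower.

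Vesicle proteins made up several of the other calls. Syn2, a synapsin that tethers vesicles, was between 3961 and 4125 in untrained and between 5013 and 5160 in trained CA1 and rose by 0.33 ± 0.044 on the log2 scale (limma adjusted p = 0.000112). In DG it rose as well (0.34 ± 0.064, limma adjusted p = 0.0117), and over all subregions by 0.36 ± 0.049 (limma adjusted p = 0.000146). Slc17a7, the vesicular glutamate transporter VGLUT1, rose in CA1 (0.29 ± 0.052, limma adjusted p = 0.00289), as did Syp (0.20 ± 0.044, limma adjusted p = 0.00935). Cadps2, a priming factor for dense-core vesicles, fell by 0.45 ± 0.085 in CA1 (limma adjusted p = 0.00313).

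The calcium-binding Rph3a was called in opposite directions, higher in trained CA1 (0.24 ± 0.050, limma adjusted p = 0.00824) and lower in trained DG (-0.35 ± 0.065, limma adjusted p = 0.0104). In DG the calcium sensor Syt7 (-0.30 ± 0.066, limma adjusted p = 0.0202), the SNARE-binding Stxbp6 (-0.44 ± 0.069, limma adjusted p = 0.00445) and Prrt2 (-0.35 ± 0.063, limma adjusted p = 0.00975) were lower. The vesicle glycoprotein gene Sv2b was higher there (0.40 ± 0.068, limma adjusted p = 0.00711). Syt7 too was called in opposite directions, being higher in trained CA1 (0.17 ± 0.045, limma adjusted p = 0.0352). The CA1 minus DG difference in training effect was called for Syt7 (0.47 ± 0.13, limma adjusted p = 0.0475) and Rph3a (0.59 ± 0.11, limma adjusted p = 0.0115). The pair of calls in CA3 were Syt12, higher by 0.68 ± 0.10 (limma adjusted p = 0.0166), and Sv2c, lower by 0.66 ± 0.099 (limma adjusted p = 0.0173). Over all subregions Syn3 was lower (-0.37 ± 0.063, limma adjusted p = 0.000921), whereas Rab3a, the small GTPase of synaptic vesicles, was higher (0.22 ± 0.047, limma adjusted p = 0.00449).

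**Figure D4:**
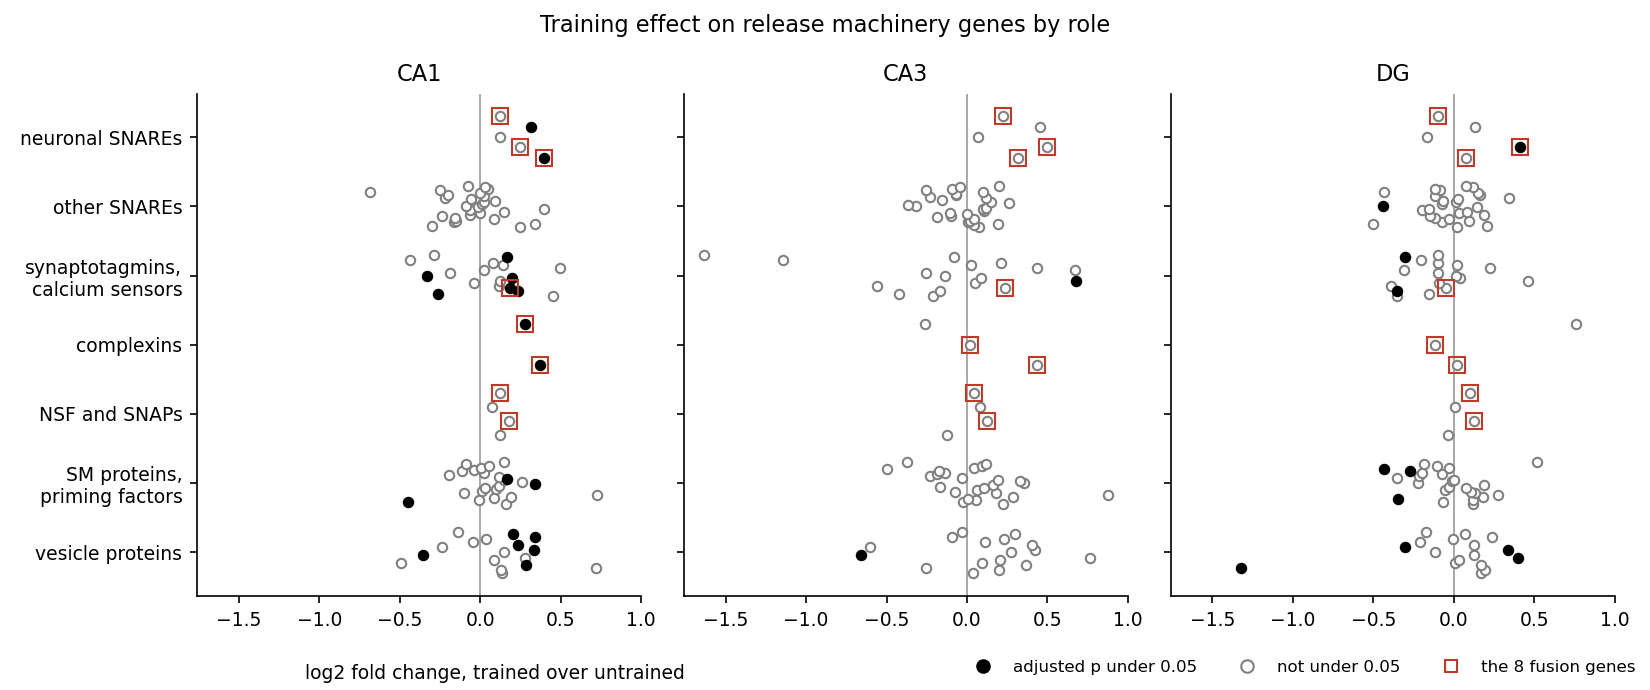
Log2 fold change of trained over untrained (horizontal axes) for each tested release machinery gene, grouped by role, in CA1, CA3 and DG; filled points have an adjusted p under 0.05 and squares mark the 8 fusion genes. All 8 squares lie above 0 in CA1 and CA3 and 5 of 8 in DG, while other SNARE genes lie on both sides of 0.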

How the data were processed

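The 16 bulk libraries came from CA1, CA3 and DG tissue, 9 from 3 trained and 7 from 3 untrained mice. Per the methods, the authors mapped the reads with STAR and quantified them with Salmon; for these libraries, Trim Galore is named only in the submitters' processing notes. The labels give the genome build as GRCm38, which was used here, while the methods name mm10 beside a later assembly. The deposited signal is an estimated count per gene that was already normalised between libraries; how is not described, but median-of-ratios factors recomputed on it round to 1.0 in every library. The values are not whole numbers and whole reads were not recovered, so depth is unknown.

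The 8 genes and all lists were chosen with earlier results of these data known. Genes were tested with limma 3.58.1 (R 4.3.3) on log2(value + 2) with its trend and robust options, and p-values were adjusted by the Benjamini-Hochberg method over all genes tested. Genes entered a test when they reached a value of 10 in a number of libraries equal to the smallest group (3 in CA1, 2 elsewhere). A call is an adjusted p under 0.05. Comparisons within a subregion used that subregion's libraries, and the others used all 16 as independent. Deviations of libraries labelled as 1 animal had r from -0.108 to 0.0921 over 14 pairs. With at most 3 libraries per group, and with Xist differing between libraries labelled untrained 1, this cannot show that such libraries are independent. In the fits of all 16, several libraries come from 1 animal, so their p-values do not measure the spread between animals. Where nothing else is said, p-values measure the spread between these libraries. The fit was also run on simulated data, and the outcome is not reported here. The text names the 8 genes in every comparison and, from the release machinery lists, up to 6 genes of smallest adjusted p among those called in each training comparison, the paralogs of the 8 genes and the 5 genes most like their mean. Some genes that this rule names are not reported here. The ratios were chosen after values were seen. Of the listed symbols 2 were not matched. Alternatives were other scaling, filters, pseudocount 0.5, no robust estimation, a replicate block, covariates, 1 fit of all libraries and each animal left out.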

Additional observations from a re-analysis of the deposited data

Results flagged for a closer look

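Snap25 in trained CA3 replicate 3 was 15065, above the other 8 trained libraries by a gap that was 0.522 of the range of all 9. It was singled out because that share is larger than expected for 9 samples at the 95% level. This check was made in 32 sets of libraries in all, and chance alone marks about 1 in 20. The 9 libraries span 3 subregions, and the next highest, at 13686, was also from CA3.

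The training effect on Cplx2 differed between CA1 and DG by 0.3955 on the log2 scale (limma adjusted p = 0.0136, interaction term), with all 3 trained CA1 libraries above all untrained ones. It was singled out because the difference itself passed the test. It was called under 13 of 15 alternatives, with log2 values from 0.3278 to 0.457.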

How the results depend on the processing

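Median-of-ratios rescaling, with factors of 1.0 as rounded, changed no call. Of 832 pairs of a gene's value and an alternative, 752 kept their direction and side of the threshold, 36 lost a call, 33 gained one and 11 reversed; unless stated, the cause was not tested. In CA1, 4 of 8 genes were called, 2 with the CA1 marker score as a covariate and 3 to 5 with each animal left out. In CA3, where 0 were called, 3 were called in the fit of all libraries and 0 to 2 with each animal left out. In DG, 1 was called, 0 in the fit of all libraries and 0 to 2 with each animal left out. Over all subregions 3 were called, 0 with the sex-linked score, 5 with the number of genes at 0 as a covariate and 2 to 5 with each animal left out. The share of all genes called with the number of genes at 0 as a covariate is not given here. Counts in this paragraph from fits without such a share have no background and are not read as a result about the 8 genes. For CA1 minus DG in training effect 1 was called, 2 without the low-value filter, 2 without untrained CA3 replicate 1 and 0 to 2 with each animal left out; for CA1 minus CA3 it was 0 to 1. Between subregions, CA1 minus DG had 3 calls, 1 without robust estimation and 0 to 3 with each animal left out, and CA1 minus CA3 had 0, 1 without untrained CA3 replicate 1 and 0 to 2 with each animal left out.

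Trained and untrained libraries of 1 number share only that number (r from -0.18 to 0.119 over 7 pairs, 1 of them over 0.1). With that number as a replicate block, 5 of the 8 genes and 8.38% of all genes were called in CA3 (Snap25, Vamp2, Stx1a, Syt1 and Cplx1), 0 and 3.59% in DG and 2 and 2.49% for CA1 minus DG in training effect, and Cplx1 in DG was -0.01968. A random block for the animal gained the call of Napb over all subregions and changed no other count of calls.

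Values near 0 changed sign. Cplx2 over all subregions was -0.009821 with the CA1 marker score, and Nsf for CA1 minus DG in training effect was -0.009165 after upper-quartile rescaling. With each animal left out, Cplx2 in CA3 ran from -0.05389 to 0.05713, Napb in CA3 from -0.01686 to 0.2679, Syt1 in DG from -0.116 to 0.02189 and Cplx1 in DG from -0.03336 to 0.07757. For CA1 minus DG in training effect, Nsf ran from -0.02052 to 0.06773 and Napb from -0.03604 to 0.1081.

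In CA3 and DG, leaving out an untrained animal leaves 1 untrained library, assumed to vary like the trained ones. The number of all genes called moved more. In CA1 it was 710, 1877 without the filter, 213 with the CA1 marker score and 329 to 865 with each animal left out. In CA3 it was 118, 56 without robust estimation, 1160 with the number block, 413 in the fit of all libraries and 7 to 680 with each animal left out. In DG it was 473, 308 without robust estimation and 28 to 1583 with each animal left out. Over all subregions it was 1517, 0 with the sex-linked score, 1000 without untrained CA3 replicate 1 and 456 to 1873 with each animal left out.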

Other observations

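Markers of other cell types were also compared between trained and untrained libraries, where the share of all genes called in either direction was 5.23% for CA1, 0.852% for CA3 and 3.39% for DG. The marker genes named here were picked after their values were seen. Of the 6 interneuron markers 1 was called higher in CA3, Sst (log2 0.82 ± 0.11, limma adjusted p = 0.0101), and their sum was between 3105 and 3820 over all groups. Of the 6 astrocyte markers 1 was called lower in CA1, with sums from 12790 to 15590. None of the oligodendrocyte or microglia markers was called in limma in any subregion; 2 oligodendrocyte markers in DG and 0 microglia markers had an unadjusted p under 0.05. The oligodendrocyte sum nevertheless ran from 12550 to 26440 between libraries of CA3. Of the 6 endothelial markers, whose sum was higher in trained CA1 and lower in trained DG without overlap, 1 was called lower in DG, Flt1 (log2 -0.94 ± 0.13, limma adjusted p = 0.00142). Of the 6 choroid plexus markers 2 were called lower in CA3, Ttr (log2 -3.29 ± 0.16, limma adjusted p = 7.26e-06) and Clic6 (log2 -2.55 ± 0.46, limma adjusted p = 0.0343), where they summed to between 1744 and 2397 in untrained and between 905 and 1398 in trained libraries. The part of these in the values of the fusion genes was not tested.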
